A study of Mus musculus with 9 samples.

Results

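Of 46078 genes counted in mouse spermatogonial stem cells (SSCs) that were induced to differentiate in culture, 51 had a mean level at 24 h of at most 0.5 of the level at 0 h and a mean level at 48 h at least 1.5 times the level at 24 h. Levels are CPM, the count of a gene divided by the total of its library and multiplied by 1000000, and means are over 3 libraries a time. A gene also needed a 0 h mean of at least 5 CPM, which 11758 genes reached, and 764 of these met the limit for 24 h. The genes were chosen by the measured levels of all 9 libraries, so the 2 ratios and every count drawn from them are a description and carry no test. 1 more gene met the values, Id4 (35.4, 6.80 and 12.4 CPM at 0 h, 24 h and 48 h), and was left out by name with the other Id, Hox, collagen and histone genes.

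The cells were EGFP-SSCs, a wild-type SSC line that carries green fluorescent protein, and each time (0 h, 24 h and 48 h) had 3 libraries that the labels call biological replicates. At 0 h the line was in normal culture on feeder layers of mitomycin C-treated embryonic fibroblasts, with epidermal growth factor, basic fibroblast growth factor and glial cell line-derived neurotrophic factor (GDNF) in the medium. For 24 h and 48 h the line was mixed in equal parts with somatic cells of busulfan-exposed testes of mice aged 3 to 7 days, in medium with BMP-4, BMP-7, retinoic acid, activin A, testosterone, FSH and BPE, and fluorescent cells were then sorted. The labels name this sort for the later times, and the study speaks of sorting by flow cytometry across the stages of culture. Time, medium and companion cells changed together after 0 h and cannot be told apart, and all libraries come from 1 cell line. In bulk libraries, fewer cells of a type and less RNA per cell cannot be told apart either.

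In an SSC culture, GDNF and fibroblast growth factor signals keep spermatogonia undifferentiated, while retinoic acid starts the switch to differentiating, Kit-positive spermatogonia that later enter meiosis. The amount of an mRNA follows from how fast it is made and how fast it decays, and starts rich in the bases G and C are common among broadly used genes. Of 32 lists of pathway genes and cell type markers that were looked up, 0 held more than 1 of the 51 genes. The set includes a core subunit of Mediator, which joins transcription factors to RNA polymerase II, secreted and intracellular signalling proteins, surface proteins best known from blood vessels, and zinc finger repressors.

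Library totals were 16825251 to 22201892 counts. Within each time the counts varied beyond sampling noise (chi-square over its degrees of freedom 7.78 to 90.9), and each library is 1 replicate. Germ cell markers, 11 genes in sum, lay between 2175 and 3487 CPM in the 0 h libraries and between 3131 and 3762 CPM in the later ones. Fibroblast and stroma markers, 18 genes in sum, spanned 824 to 987, 3369 to 3882 and 4620 to 5029 CPM over the 3 times in order. Sertoli markers (12 genes) spanned 26.7 to 27.2, 85.6 to 140 and 128 to 140 CPM. Myoid markers (10 genes) spanned 24.2 to 30.6, 195 to 264 and 333 to 401 CPM. Undifferentiated spermatogonia markers (21 genes) went down, at 2849 to 3278, 1294 to 1468 and 1090 to 1205 CPM. Macrophage markers (10 genes) also went down, at 14.7 to 17.7, 6.94 to 11.2 and 6.64 to 9.30 CPM. The sorted libraries thus held more RNA of the stroma, Sertoli and myoid markers than those of 0 h, and its part in the values below was not tested. In genes with under 40% GC in their transcripts the libraries stood apart within a time. Their median log2 level against the mean of the 9 libraries was 0.42, -0.14 and -0.72 in 0 h replicates 1, 2 and 3, -0.18, 0.01 and 0.03 at 24 h, and 0.28, -0.01 and 0.35 at 48 h.

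All 51 genes were in the annotation used for names and positions (GENCODE M21, GRCm38), 45 of them as protein-coding genes. They lay on 16 chromosomes, with 8 on chromosome 2, 7 on chromosome X and 5 each on chromosomes 4 and 13. The 7 X-linked genes were 13.7% of the set, against 4.24% of the 11758 genes at 5 CPM or more, and 3 of the 7 (Gm15027, Gm14536 and Gm15015) match other genes in full and are not separate measurements. In the edgeR fits over all genes, 35 of the 51 were called lower at 24 h than at 0 h (14.2% of genes tested), and 25 of the 50 tested were called higher at 48 h than at 24 h (8.61% of genes tested). At 48 h, 26 of the 51 were still called lower than at 0 h (18.5% of genes tested), and the other 25 were not called. DESeq2 called 40, 21 and 27 members in the 3 comparisons, in the order given. The rule used these libraries, so nothing is read from the shares.

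**Figure D1:**
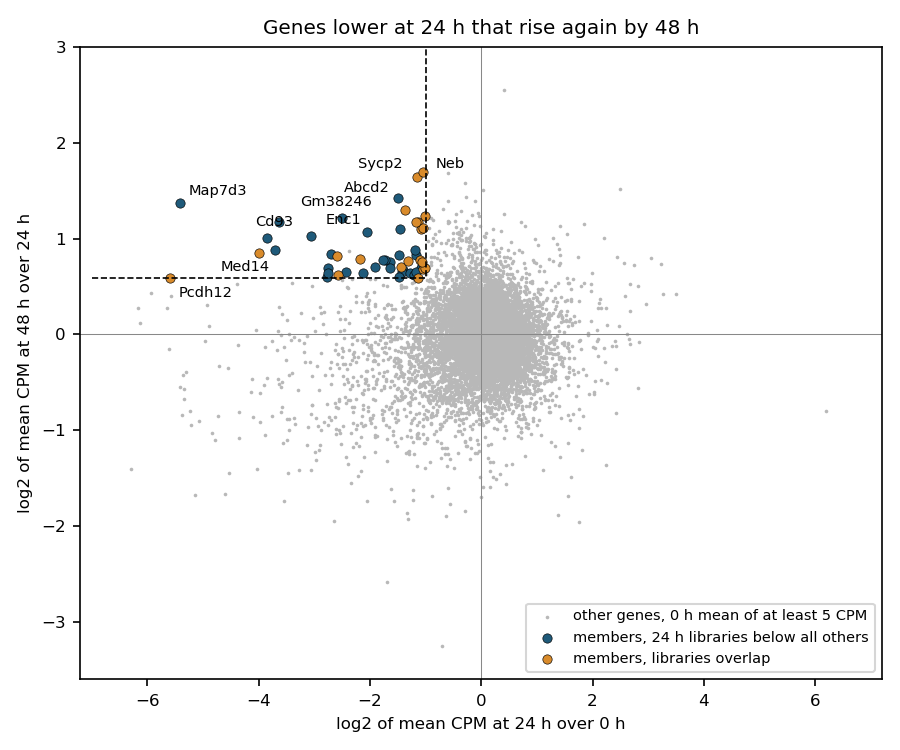
Each point is 1 of 11758 genes with a 0 h mean of at least 5 CPM, by the log2 ratio of mean CPM at 24 h over 0 h (x axis) and at 48 h over 24 h (y axis). The dashed lines are the 2 limits, and the 51 members lie in the corner at the upper left, from Pcdh12 and Map7d3 at the far left to Neb and Sycp2 at the top right of the corner.

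The return by 48 h was partial for most of the genes. The median level was 36.0% of the 0 h level at 24 h and 59.9% at 48 h, so that a median of 35.8% of the loss had been regained. Between 48 h and 0 h the median log2 ratio of mean CPM was -0.74. For 28 genes all 48 h libraries were below all 0 h libraries, which 24.2% of genes at 5 CPM or more also showed, and for 18 the 48 h mean was under 50% of the 0 h mean. In 7 genes the 48 h mean was above the 0 h mean, namely Neb, Sycp2, Rex2, Usp9y, Phip, Thoc2 and Zfp980. In each of these 7, 24 h libraries overlapped 0 h libraries. At the other end Pcdh12 stood at 3.13%, Map7d3 at 6.05% and Lyve1 at 11.3% of the 0 h level at 48 h.

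**Figure D2:**
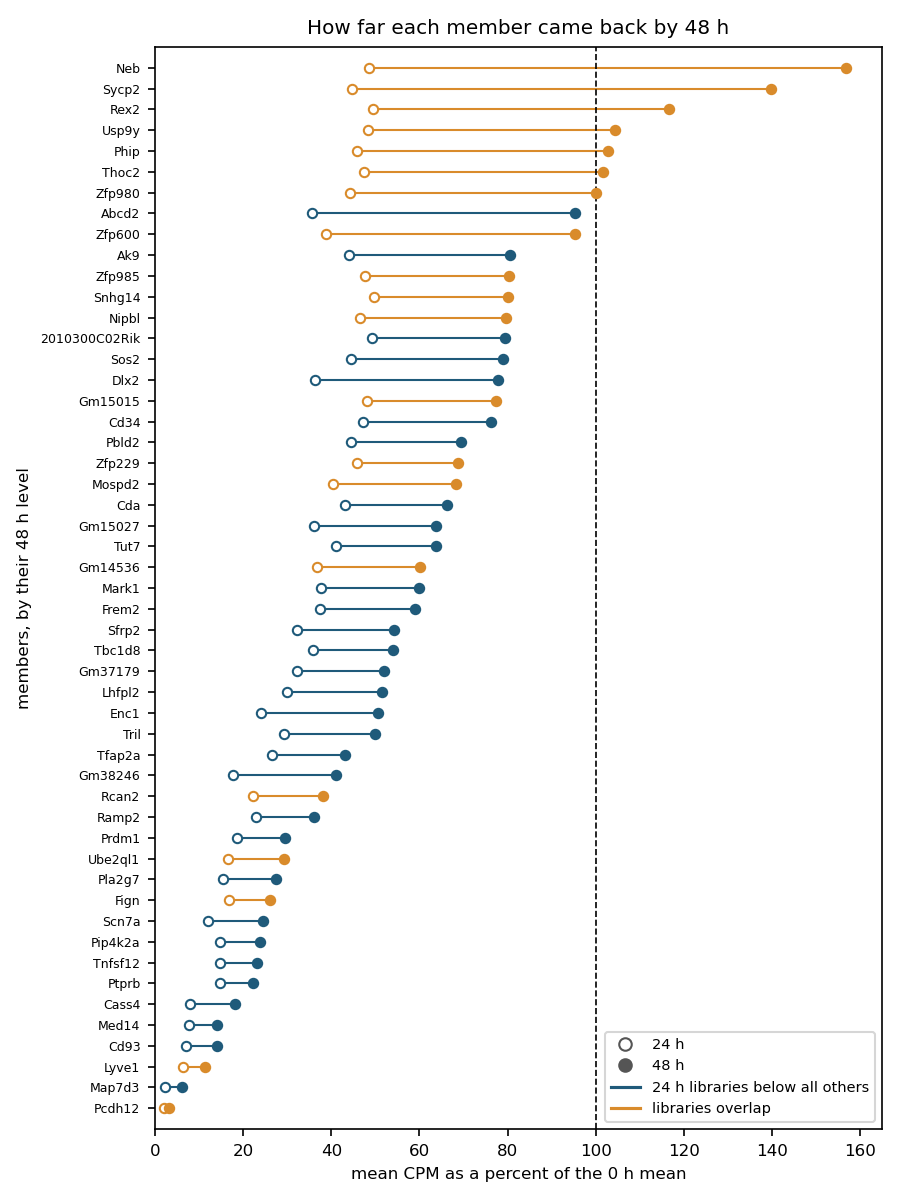
For each of the 51 genes, the mean CPM at 24 h (open circle) and at 48 h (filled circle) is shown as a percent of its 0 h mean (x axis), ordered by the 48 h value. The blue genes, in which the 24 h libraries lie below all others, all end left of the dashed line at 100%, and the 7 genes that end to its right are orange, with overlapping libraries.

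The genes were of 2 kinds when their libraries were looked at singly. In 31 genes all 3 libraries of 24 h were below all 3 of 0 h and all 3 of 48 h, which 3.3% of genes at 5 CPM or more showed. In the remaining 20 the libraries overlapped. For 5 of these 20 (Pcdh12, Fign, Rcan2, Lyve1 and Ube2ql1) the overlap was between 24 h and 48 h, while every 24 h library stayed below every 0 h library. For the other 15 the 24 h libraries overlapped those of 0 h, and 14 of them overlapped those of 48 h as well. Of the 20 genes, 15 were highest of 0 h in replicate 1 and 17 were lowest of 48 h in replicate 2.

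**Figure D3:**
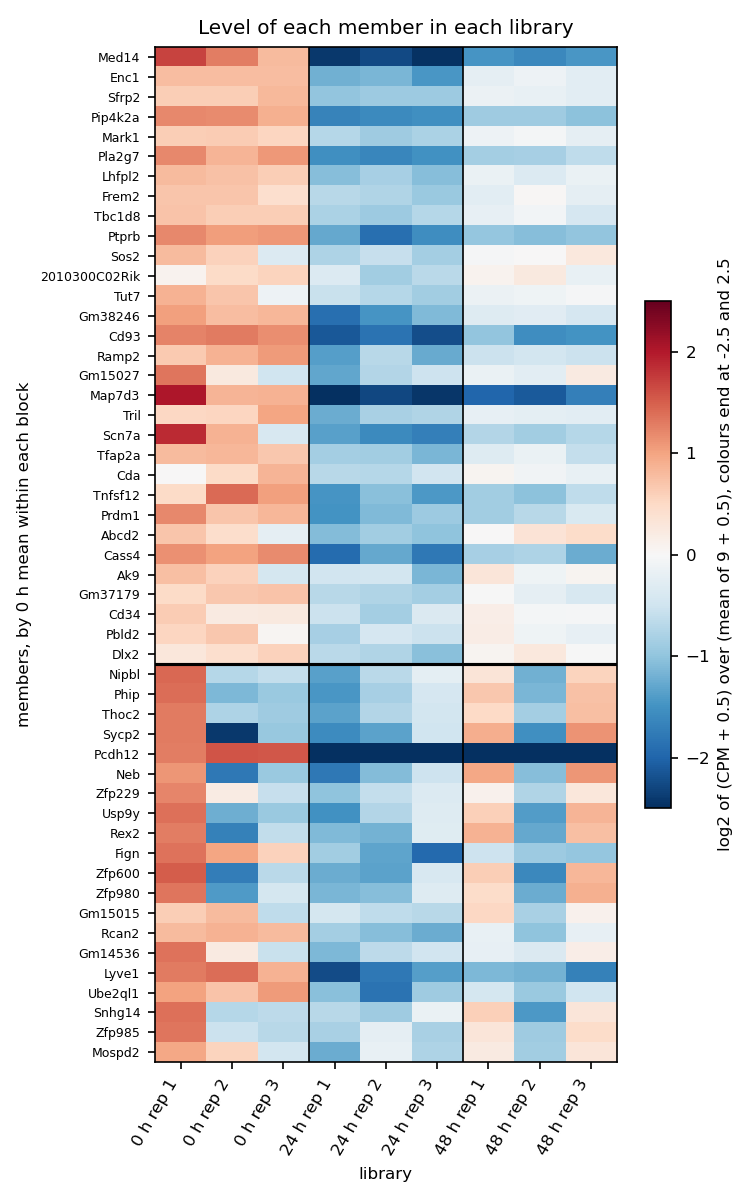
Rows are the 51 genes and columns the 9 libraries, coloured by the log2 of CPM over the mean of the 9 libraries, with 0.5 added to each. Above the black line are the 31 genes in which all 24 h libraries are below all others, and below it the 20 genes in which they overlap, where 0 h replicate 1 is often red alone and 48 h replicate 2 is often blue between redder neighbours.

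The 2 kinds were split by overlap of single libraries. A wider spread among the 20, and 24 h sums below all others among the 31, follow from the split and are given as a description. The split sets no order between 0 h and 48 h. Among the 31 genes the median coefficient of variation at 0 h was 14.4%, close to the 15.3% of all genes at 5 CPM or more, and among the 20 it was 91.6%. The level in 0 h replicate 1 over the mean of replicates 2 and 3 had a median of 1.09 in the 31 genes and 4.36 in the 20, with a highest value of 7.15. In 48 h replicate 2, the level over the mean of replicates 1 and 3 had a median of 0.974 in the 31 genes and 0.358 in the 20, with a lowest value of 0.165. Summed over the 20 genes, replicates 1, 2 and 3 held 785, 218 and 228 CPM at 0 h, then 116, 160 and 219 CPM by 24 h, and 450.5, 135 and 499 CPM by 48 h. The highest 24 h sum thus fell between those of 0 h replicates 2 and 3, and 48 h replicate 2 lay among the 24 h libraries. Summed over the 31 genes, the same libraries held 1117, 994 and 883 CPM, then 236, 239 and 226 CPM, then 409, 417 and 402 CPM, and no time overlapped another.

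GC content of the transcript moved with these ratios. The median was 49.3% in the 31 genes and 38.7% in the 20, against 49.9% in all genes at 5 CPM or more, while median transcript lengths were 4221 and 4384.5 bases. Of the 51 genes, 11 had under 40% GC (21.6%, against 5.52% of genes at 5 CPM or more), and all 11 were among those in which 24 h overlapped 0 h. Across the 51 genes, which share the same libraries, Spearman's rho of GC content was -0.86 with the ratio of 0 h replicate 1 to the others and 0.68 with the ratio of 48 h replicate 2 to the others. The rule used these same libraries, and only 5 of the 20 genes still met it without 0 h replicate 1. The choice of genes can thus shape both values of rho, which are a description. With CPM corrected for GC content and length, 27 of the 31 genes and 8 of the 20 still met the rule. Of the 31, Frem2, Ptprb, Tut7 and Cd34 no longer met it. Among the 8 were Pcdh12, Rcan2, Lyve1 and Ube2ql1, in which 24 h did not overlap 0 h. The rest of the 8 were Zfp600, Zfp980, Gm15015 and Gm14536, in which it did. Other genes match at least 94.3% of the transcript in each of this second group. The part of GC content in the dip of the 20 genes was not tested further.

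**Figure D4:**
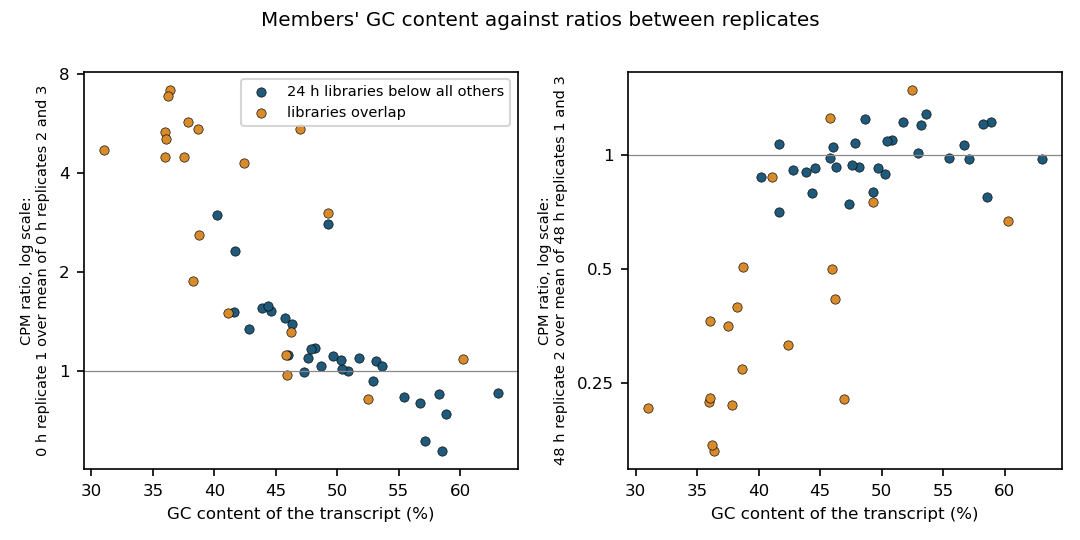
Each point is 1 of the 51 genes, by the GC content of its transcript (x axis, percent) and, on a log scale, by the CPM in 0 h replicate 1 over the mean of the other 0 h libraries (left) or in 48 h replicate 2 over the mean of the other 48 h libraries (right). The orange genes, whose libraries overlap, reach 7.15 on the left and 0.165 on the right, mostly at low GC content.

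Leaving out 1 library at a time and choosing again left 16 of the 51 genes in all 9 rounds. These were Med14, Enc1, Sfrp2, Pip4k2a, Mark1, Pla2g7, Lhfpl2, Gm38246, Cd93, Map7d3, Tril, Scn7a, Tfap2a, Abcd2, Cass4 and Rcan2. All but Rcan2 were among the 31 genes. Without 0 h replicate 1, 27 of the 31 genes stayed and 5 of the 20, and the rule then chose 33 genes in all. Without 0 h replicate 3, which stood lowest in genes of low GC content, it chose 77. Without 24 h replicate 1, 33 of the 51 genes stayed.

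Promoter sequence was looked up in RefSeq (GRCm38.p6), in windows of 250 bases before and 50 after each gene start, and 35 of the 51 genes had such a window, 42 windows in all. Median GC content was 60.5% in these windows and 52.7% in all 32851 windows. The GC box GGGCGG, searched on both strands, was in 71.4% of the members' windows and in 35.7% of all, and the GC-rich SMAD element GGCGCC in 38.1% and 11.9%. The 2 strings can share bases, and both consist of G and C alone, so the shares are not independent of GC content. The 32851 windows were not limited to genes at 5 CPM or more, as the members were, so the 2 sets also differ in level. Some members have more than 1 window, and these can overlap. GGGCGG was in 30 windows of 26 members and GGCGCC in 16 windows of 14 members. The TATA box core TATAAA was in 4.76% of the members' windows and 13.6% of all, and the SMAD string CAGACA in 26.2% and 21.04%. The DR5 retinoic acid response element was in 0 of the 42 windows and in 0.00913% of all. The shares were 38.1% and 37.4% for the CCAAT box CCAAT, 14.3% and 14.7% for the TEAD core GGAATG, and 9.52% and 8.86% for the ETS core CCGGAAG. They were 2.38% and 5.20% for the AP-1 string TGAGTCA, 2.38% and 7.15% for the E-box CACGTG, and 0% and 1.79% for the cyclic AMP element TGACGTCA. A match is only a match of letters, and a missing match says nothing of a factor.

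The bases before the start are shown for the strongest dip at high level (Med14), for 3 further genes with tight replicates and GGCGCC (Pip4k2a, Mark1 and Lhfpl2), for the Wnt modulator Sfrp2, which has neither string, and for Sycp2 as the gene in which 0 h replicate 1 stood farthest apart. Each is read 5′ to 3′ on the strand of its gene, ends at the RefSeq start or, where an annotated exon begins earlier, just before that exon, and has GGCGCC and GGGCGG (or its reverse CCGCCC) in capitals. Where RefSeq has several starts, the one farthest upstream was taken. For Mark1 this start lies upstream of the gene as annotated in GENCODE. Its other window, from 184999500 to 184999799, has GGCGCC at positions -161 and -137 and is not printed.
Med14 (chrX:12762074-12762223, minus strand): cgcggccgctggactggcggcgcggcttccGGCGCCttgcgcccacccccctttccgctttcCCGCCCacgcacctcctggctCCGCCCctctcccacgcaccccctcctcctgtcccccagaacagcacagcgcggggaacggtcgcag
Pip4k2a (chr2:18998127-18998342, minus strand): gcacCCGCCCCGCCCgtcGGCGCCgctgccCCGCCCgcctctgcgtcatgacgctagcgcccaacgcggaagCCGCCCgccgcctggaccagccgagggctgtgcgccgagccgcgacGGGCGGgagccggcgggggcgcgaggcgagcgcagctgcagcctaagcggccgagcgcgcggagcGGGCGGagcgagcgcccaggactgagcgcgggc
Mark1 (chr1:184999955-185000204, minus strand): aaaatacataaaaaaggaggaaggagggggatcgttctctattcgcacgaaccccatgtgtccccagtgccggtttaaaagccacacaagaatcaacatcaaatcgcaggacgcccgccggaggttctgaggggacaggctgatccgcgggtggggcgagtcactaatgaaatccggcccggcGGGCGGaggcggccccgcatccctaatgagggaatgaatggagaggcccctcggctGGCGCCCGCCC
Lhfpl2 (chr13:94057546-94057795, plus strand): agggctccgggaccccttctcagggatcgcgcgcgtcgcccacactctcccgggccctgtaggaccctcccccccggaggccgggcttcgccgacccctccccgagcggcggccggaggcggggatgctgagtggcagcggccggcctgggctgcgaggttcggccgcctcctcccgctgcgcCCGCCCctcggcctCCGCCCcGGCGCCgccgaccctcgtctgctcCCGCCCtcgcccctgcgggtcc
Sfrp2 (chr3:83766071-83766320, plus strand): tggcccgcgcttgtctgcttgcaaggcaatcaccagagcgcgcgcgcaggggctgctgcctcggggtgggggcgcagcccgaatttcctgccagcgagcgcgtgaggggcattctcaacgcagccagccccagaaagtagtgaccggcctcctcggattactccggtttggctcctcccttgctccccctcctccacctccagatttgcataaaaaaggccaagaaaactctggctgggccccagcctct
Sycp2 (chr2:178407686-178407908, minus strand): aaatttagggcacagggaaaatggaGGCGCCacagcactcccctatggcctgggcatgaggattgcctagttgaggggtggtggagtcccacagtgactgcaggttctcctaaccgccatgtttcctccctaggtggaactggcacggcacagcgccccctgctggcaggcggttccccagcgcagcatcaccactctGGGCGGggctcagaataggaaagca
In Pip4k2a the GC boxes number 6 in 216 bases, and in Med14 2 in 150. Sycp2 has 1 of each string. Sfrp2 has neither, but the SMAD string CAGACA, which is not in capitals, is at position -239 on its other strand. The genes shown were picked by hand, so nothing is read from which of them hold a string.

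Med14, a gene of transcription, had the highest level of the set at 0 h. Med14 (ENSMUSG00000064127, chromosome X, 12675369 to 12762073, minus strand) encodes the backbone subunit that joins the head, middle and tail modules of Mediator. This complex carries signals from transcription factors to RNA polymerase II. Med14 measured 299.7, 224 and 161 CPM at 0 h, 17.1, 18.997 and 16.3 at 24 h, and 33.0, 29.9 and 33.6 at 48 h. The 0 h libraries differed widely among themselves, but all of them lay far above every later library, and all 48 h libraries were above all 24 h libraries. Med14 was 13.1-fold lower at 24 h and 1.84-fold higher again at 48 h, which left it at 14.1% of its 0 h level. After correction for GC content and length the values were 263, 237 and 242 CPM at 0 h, 17.5, 18.0 and 16.8 at 24 h, and 29.1, 28.2 and 29.0 at 48 h.

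Most genes of the complex did not take the course of Med14. By name, 32 Mediator genes (Med genes, Ccnc, Cdk8 and Cdk19) were at 5 CPM or more at 0 h, and the 31 other than Med14 had a median ratio of 24 h to 0 h of 1.11. Of the 32, 3 were called lower and 1 higher at 24 h (14.2% and 11.4% of genes tested). Of the 31, only Med13l, a subunit of the kinase module, was also below 0.5, at 514, 524 and 403 CPM at 0 h, 208, 183 and 156 at 24 h, and 189, 195 and 172 at 48 h. Its level stayed down at 48 h, with a ratio of 48 h to 24 h of 1.02. The family was looked at after the values of Med14 were seen. The genes next to Med14 on the X chromosome were 1810030O07Rik (means of 42.0, 43.5 and 38.5 CPM in order of time) and Atp6ap2, an accessory subunit of the proton pump (57.8, 52.5 and 52.3 CPM). Gm14634, on the opposite strand just before the start of Med14, went from 1.29 to 0.240 and 0.238 CPM.

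The other genes of chromosome function had libraries that overlapped. Sycp2 (ENSMUSG00000060445, chromosome 2, 178345293 to 178407685, minus strand), a lateral element protein of the synaptonemal complex that pairs chromosomes in meiosis, measured 89.9, 6.39 and 18.7 CPM at 0 h, 11.9, 14.1 and 25.5 at 24 h, and 69.0, 12.3 and 79.7 at 48 h. Its 0 h replicates 2 and 3 lay below or among the 24 h libraries, and 48 h replicate 2 lay at the level of 24 h, so the dip rested on 0 h replicate 1 and the rise on 48 h replicates 1 and 3. The GC content of its transcript is 36.4%, and with the correction the values were 63.1, 7.89 and 31.0 CPM at 0 h, 13.8, 14.1 and 25.2 at 24 h, and 50.2, 14.1 and 58.2 at 48 h. On that scale 0 h replicates 1 and 3 lay above the 24 h libraries, 0 h replicate 2 lay below them, and 48 h replicate 2 still lay among them.

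Nipbl, which loads cohesin onto chromosomes, measured 127, 28.5 and 31.1 CPM at 0 h, 18.0, 29.3 and 39.6 at 24 h, and 59.0, 20.2 and 69.8 at 48 h. Phip, a chromatin reader that binds methylated histone H3, measured 114, 19.6 and 22.6 CPM at 0 h, 15.4, 24.0 and 32.2 at 24 h, and 69.3, 19.3 and 72.3 at 48 h. Usp9y, a deubiquitinase encoded on the Y chromosome, measured 49.4, 7.71 and 9.63 CPM at 0 h, 6.20, 11.1 and 15.0 at 24 h, and 28.5, 6.85 and 34.3 at 48 h. In all 3 genes, 0 h replicate 1 was the highest of the 9 libraries, 0 h replicates 2 and 3 lay among the 24 h libraries, and 48 h replicate 2 was the lowest of its time.

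RNA processing was represented by Thoc2 and Tut7. From here on, values with ± are means and SD over 3 libraries (n = 3) in the order 0 h, 24 h and 48 h. Thoc2, the scaffold of the THO complex that couples transcription to mRNA export, had 45.3 ± 42.1, 21.4 ± 6.49 and 46.1 ± 22.6 CPM, with 0 h replicate 1 at 4.47 times the mean of the other 0 h libraries. Tut7, which adds uridines to the ends of RNAs and marks them for decay, measured 32.8, 29.0 and 16.3 CPM at 0 h, 11.9, 10.6 and 9.55 at 24 h, and 16.0, 16.4 and 17.4 at 48 h. Every 24 h library of Tut7 was below all others, and 0 h replicate 3 lay among the 48 h libraries. Of its transcript 25.9% matches other genes, Etohd2 above all, so part of its count is uncertain.

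**Figure D5:**
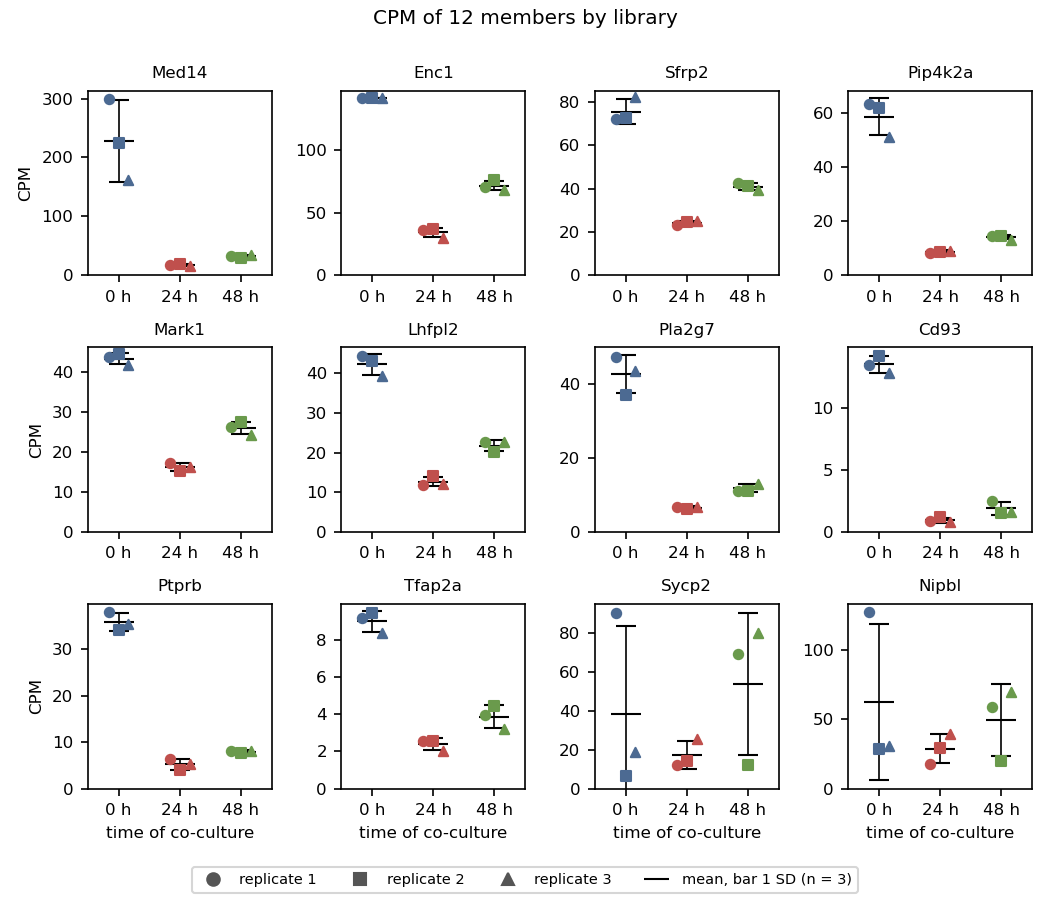
CPM of 12 members (y axis, from 0) in the 3 libraries of each time (x axis), with symbols for replicate numbers, a horizontal mark at the mean and bars of 1 SD (n = 3). From Med14 to Tfap2a all 24 h points lie below all others, while in Sycp2 and Nipbl 1 point at 0 h and 2 points at 48 h stand above the rest.

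Beside the zinc finger genes described next, 3 transcription factors were in the set, each with a 0 h mean under 10 CPM. Tfap2a, known from the neural crest, measured 9.21, 9.45 and 8.37 CPM at 0 h, 2.59, 2.56 and 2.02 at 24 h, and 3.96, 4.46 and 3.20 at 48 h. Prdm1 (Blimp1), a repressor needed for the founding of the germ line, measured 9.09, 6.20 and 6.92 CPM at 0 h, 0.982, 1.44 and 1.72 at 24 h, and 1.77, 2.07 and 2.69 at 48 h. Dlx2, a homeobox factor of forebrain and jaw development, measured 4.64, 5.12 and 5.80 CPM at 0 h, 2.12, 2.00 and 1.53 at 24 h, and 3.91, 4.55 and 3.66 at 48 h. In all 3 the 24 h libraries were below all others, and for Prdm1 the gap to 48 h was the narrowest, between 1.72 and 1.77 CPM. Dlx2 came back to 77.9% of its 0 h level, Tfap2a to 43.0% and Prdm1 to 29.4%.

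5 members are KRAB zinc finger genes, a family of repressors that mostly silence transposable elements. Rex2, Zfp600, Zfp980 and Zfp985 lie in a cluster on distal chromosome 4, between positions 145670685 and 147585198, and Zfp229 lies on chromosome 17. Rex2 (ENSMUSG00000067919, chromosome 4, 147021850 to 147060794, plus strand) measured 40.2, 4.70 and 10.4 CPM at 0 h, 7.29, 6.89 and 13.1 at 24 h, and 30.1, 6.44 and 27.9 at 48 h. Zfp600 measured 26.0, 2.30 and 5.28 CPM at 0 h, 3.41, 3.17 and 6.45 at 24 h, and 13.6, 2.52 and 15.9 at 48 h. Zfp980 had 7.79 ± 7.87, 3.44 ± 1.32 and 7.79 ± 4.95 CPM, Zfp985 had 5.60 ± 5.19, 2.66 ± 0.772 and 4.49 ± 2.12 CPM and Zfp229 had 25.8 ± 16.2, 11.8 ± 2.72 and 17.7 ± 6.20 CPM. In all 5 genes 0 h replicate 1 was highest of 0 h, and 0 of the 5 were called in any comparison. Over all genes tested, 14.2% were called lower at 24 h and 18.5% lower at 48 h, each against 0 h. At 48 h against 24 h, 8.61% were called higher. With only 5 genes, 0 calls are near these shares, so nothing is read from the count.

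The rest of the cluster had the same order of libraries. By name and position, 14 zinc finger genes of the cluster were at 5 CPM or more at 0 h, and in 14 of 14 the highest 0 h library was replicate 1 and the lowest 48 h library replicate 2. Their GC content was 34.6% to 40.2%, and 0 h replicate 1 was at 2.36 to 6.85 times the mean of the other 0 h libraries. The 10 genes of the cluster that are not members had ratios of 24 h to 0 h from 0.538 to 1.25. Their ratios of 48 h to 24 h were 1.30 to 2.36, with a median of 2.10, so they rose after 24 h as well. Shared sequence was measured for members alone, so the 14 genes may not be separate measurements. Rex2, Zfp600 and Zfp980 share 99.4%, 94.6% and 94.3% of their transcript windows with other genes, Zfp600 foremost for Rex2 and Zfp980, and Rex2 for Zfp600, so reads can be split among them and they are not separate measurements. Zfp985 shares 28.7%.

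6 members encode signalling proteins inside the cell. Pip4k2a (ENSMUSG00000026737, chromosome 2, 18842255 to 18998126, minus strand), a kinase that turns phosphatidylinositol 5-phosphate into the 4,5-bisphosphate, measured 63.3, 61.9 and 51.0 CPM at 0 h, 8.22, 8.72 and 9.10 at 24 h, and 14.4, 14.4 and 13.2 at 48 h. Mark1 (ENSMUSG00000026620, chromosome 1, 184896789 to 184999570, minus strand), a kinase of microtubule-associated proteins and cell polarity, measured 43.7, 44.6 and 41.8 CPM at 0 h, 17.3, 15.3 and 16.2 at 24 h, and 26.2, 27.4 and 24.3 at 48 h. The libraries of a time differed little in both, and no 2 times overlapped in either gene. Pip4k2a was 6.76-fold lower at 24 h and Mark1 2.66-fold, and they regained 10.6% and 35.8% of the loss.

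Sos2, a guanine nucleotide exchange factor that activates Ras below growth factor receptors, measured 43.2, 37.2 and 19.6 CPM at 0 h, 14.4, 16.4 and 13.6 at 24 h, and 24.3, 25.0 and 29.9 at 48 h. At 0 h its replicate 3 was below all 48 h libraries, so 48 h and 0 h overlapped while 24 h stood alone. Tbc1d8, a Rab GTPase-activating protein, had 38.5 ± 1.55, 13.8 ± 0.950 and 20.8 ± 2.68 CPM. Part of its exons (8.02%) overlaps Rpl31 on the opposite strand, a ribosomal protein gene at 465, 316 and 350.1 CPM, and the strand setting of the counts is not stated. Cass4, a scaffold of focal adhesions, had 6.16 ± 0.422, 0.494 ± 0.249 and 1.12 ± 0.266 CPM, with 28.6% of its transcript matched by Gm14455 on the opposite strand (under 1 CPM), and Rcan2, an inhibitor of calcineurin, had 6.90 ± 0.212, 1.53 ± 0.266 and 2.63 ± 0.911 CPM. Rcan2 was tight at 0 h and 24 h, and its overlap came from 48 h replicate 2 at 1.58 CPM, beside 24 h replicate 1 at 1.81 CPM.

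Among secreted factors, Sfrp2 was the highest. Sfrp2 (ENSMUSG00000027996, chromosome 3, 83766321 to 83774316, plus strand), a secreted protein that binds Wnt ligands, measured 71.9, 72.4 and 82.3 CPM at 0 h, 23.3, 24.7 and 24.8 at 24 h, and 42.4, 41.2 and 39.1 at 48 h. The 3 times did not overlap, and the level stood at 32.1% of 0 h at 24 h and 54.1% at 48 h. Pla2g7 (ENSMUSG00000023913, chromosome 17, 43568098 to 43612201, plus strand), the secreted acetylhydrolase that breaks down platelet-activating factor, measured 47.4, 37.2 and 43.6 CPM at 0 h, 6.72, 6.22 and 6.79 at 24 h, and 11.1, 11.2 and 13.008 at 48 h, likewise without overlap. It was 6.50-fold lower at 24 h and came back to 27.5%.

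Tnfsf12 (TWEAK), a cytokine of the tumour necrosis factor family, had 7.94 ± 2.67, 1.17 ± 0.285 and 1.83 ± 0.331 CPM, and 49.1% of its transcript matches the readthrough annotation Tnfsfm13. Tril, a surface partner of Toll-like receptor 4, had 10.3 ± 2.00, 3.02 ± 0.603 and 5.16 ± 0.125 CPM. Both were below all other libraries at 24 h. Sfrp2 was the only member in any of the lists, in that of Wnt targets. Of the 12 listed genes at 5 CPM or more, 5 met the limit for 24 h and 1, Sfrp2, the whole rule. Of the list, 16 genes were tested at 24 h against 0 h, with 6 called lower and 2 higher (14.2% and 11.4% of genes tested) and a median log2 fold change of -0.51, against 0.01 for all genes. At 48 h against 24 h, 15 were tested, with 4 called lower and 2 higher (12.7% and 8.61%).

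6 members encode surface proteins best known from endothelium, the lining of blood vessels. Ptprb (VE-PTP), a receptor phosphatase that restrains the angiopoietin receptor Tek, measured 38.1, 34.2 and 35.5 CPM at 0 h, 6.46, 4.05 and 5.26 at 24 h, and 8.19, 7.61 and 8.03 at 48 h. Cd93, a C-type lectin-like receptor, measured 13.5, 14.2 and 12.9 CPM at 0 h, 0.879, 1.17 and 0.787 at 24 h, and 2.52, 1.53 and 1.63 at 48 h. In both, every 24 h library was below every 48 h library, and every 48 h library was far below every 0 h library. Ptprb was 6.83-fold and Cd93 14.3-fold lower at 24 h, and they regained 8.75% and 7.53% of the loss.

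Pcdh12, a protocadherin of endothelial junctions, measured 29.5, 36.0 and 35.7 CPM at 0 h, 0.827, 0.444 and 0.836 at 24 h, and 0.803, 1.35 and 1.02 at 48 h. It had the deepest dip of the set, 48.0-fold, and its 48 h libraries overlapped those of 24 h, with 48 h replicate 1 at 0.803 CPM below 2 of the 24 h libraries. Lyve1, a hyaluronan receptor of lymphatic vessels, measured 7.07, 7.57 and 5.10 CPM at 0 h, 0.155, 0.389 and 0.689 at 24 h, and 0.910, 0.856 and 0.457 at 48 h, and its 48 h replicate 3 lay among the 24 h libraries. Ramp2, which turns the calcitonin receptor-like receptor into a receptor for adrenomedullin, had 12.2 ± 1.76, 2.81 ± 0.898 and 4.38 ± 0.144 CPM, and 73.7% of its transcript matches an annotation of Vps25 on the same strand. Cd34, a sialomucin of vessels and blood progenitors, had 5.22 ± 0.932, 2.46 ± 0.484 and 3.98 ± 0.358 CPM, with every 24 h library below all others.

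The defining markers of endothelial cells did not return in sum. The 9 markers together were at 68.2 to 75.01 CPM in the 0 h libraries, 29.6 to 38.7 CPM at 24 h, and 22.2 to 25.3 CPM at 48 h. Kdr, the main receptor of vascular endothelial growth factor, was at 23.3, 4.89 and 2.47 CPM, Pecam1 at 14.9, 2.74 and 3.07 CPM, and Vwf, the largest part of the sum, at 27.1, 17.5 and 9.91 CPM. Tek, the receptor that Ptprb restrains, went the other way, at 1.34, 3.61 and 4.18 CPM, as did Tie1 at 0.200, 0.696 and 0.720 CPM, and both were called higher at 24 h. Cdh5 was at 3.87, 5.28 and 3.05 CPM and Cldn5 at 1.45, 0.237 and 0.147 CPM. Emcn was at 0 in all 0 h libraries, and Esam was under 0.2 CPM on average at each time. Of 7 markers tested, 4 were called lower and 2 higher at 24 h (14.2% and 11.4% of genes tested), and of 6 tested at 48 h against 24 h 0 were called higher and 3 lower (8.61% and 12.7%). The part of endothelial RNA in the 6 genes was not tested.

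Genes of the cytoskeleton and of adhesion included the gene with the closest 0 h replicates. Enc1 (ENSMUSG00000041773, chromosome 13, 97241105 to 97253034, plus strand), a kelch-repeat protein that binds actin, measured 141, 141 and 142 CPM at 0 h, 35.7, 36.8 and 29.7 at 24 h, and 70.4, 75.8 and 68.3 at 48 h. The 0 h libraries were nearly equal, the 3 times did not overlap, and Enc1 was 4.15-fold lower at 24 h and back to 50.6% at 48 h. Lhfpl2 (ENSMUSG00000045312, chromosome 13, 94057796 to 94195409, plus strand), a tetraspan membrane protein, measured 44.4, 43.2 and 39.3 CPM at 0 h, 11.9, 14.1 and 12.1 at 24 h, and 22.6, 20.1 and 22.7 at 48 h, also with no overlap between times. Frem2, a basement membrane protein that holds epithelia to the matrix, had 41.9 ± 4.38, 15.7 ± 1.28 and 24.7 ± 2.97 CPM and was below all others at 24 h.

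Map7d3, a microtubule-associated protein that recruits kinesin, measured 16.8, 7.24 and 7.29 CPM at 0 h, 0.0517, 0.389 and 0.295 at 24 h, and 0.589, 0.495 and 0.813 at 48 h. The 24 h libraries were below all others, but the lowest stood on 1 count, and the gene did not pass the expression filter for 48 h against 24 h, so its means of 0.245 and 0.632 CPM at 24 h and 48 h rest on few counts. Fign, a microtubule-severing enzyme, had 12.9 ± 3.58, 2.18 ± 0.962 and 3.36 ± 0.665 CPM, with overlap between 24 h and 48 h. Neb, the giant ruler protein of muscle thin filaments, measured 62.8, 8.04 and 15.0 CPM at 0 h, 8.12, 13.4 and 20.2 at 24 h, and 57.7, 13.7 and 63.2 at 48 h. Its 48 h mean was 157% of the 0 h mean, the highest of the set, and rested on 48 h replicates 1 and 3, with 0 h replicate 1 apart from the other 0 h libraries. Neb was the 1 gene with overlapping libraries that was called at 48 h against 24 h.

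A further 7 members, grouped here as channels, transporters and proteins of metabolism and membranes, had 0 h means under 10 CPM. Abcd2, which carries very long-chain fatty acids into peroxisomes, measured 9.51, 7.85 and 4.77 CPM at 0 h, 2.43, 2.89 and 2.56 at 24 h, and 5.73, 7.34 and 8.03 at 48 h. Its 24 h libraries were below all others and its 48 h libraries overlapped those of 0 h, so at 95.4% of the 0 h mean it was the fullest return among the 31 separated genes. Scn7a, a sodium-sensing channel, measured 16.6, 8.08 and 3.09 CPM at 0 h, 1.34, 1.06 and 0.935 at 24 h, and 2.36, 2.07 and 2.39 at 48 h, with 0 h replicate 1 at 2.98 times the mean of the other 0 h libraries and 24 h below all others. Cda, which deaminates cytidine in pyrimidine salvage, had 8.87 ± 2.65, 3.82 ± 0.402 and 5.88 ± 0.555 CPM, Ak9, an adenylate kinase, had 5.58 ± 2.33, 2.45 ± 0.718 and 4.50 ± 0.713 CPM, and Pbld2 had 5.21 ± 1.23, 2.31 ± 0.411 and 3.62 ± 0.591 CPM. In these 3, 24 h was below all others. Mospd2, a protein of membrane contact sites, had 5.57 ± 2.73, 2.25 ± 1.01 and 3.81 ± 1.67 CPM, and the ubiquitin-conjugating enzyme gene Ube2ql1 had 6.36 ± 0.882, 1.06 ± 0.490 and 1.86 ± 0.403 CPM, both with overlap.

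The last 7 members are noncoding, pseudogenes or genes without a described role. Snhg14, the long host transcript of small nucleolar RNAs in the imprinted Prader-Willi region, had 6.22 ± 5.94, 3.09 ± 0.972 and 4.98 ± 3.15 CPM, with the lowest GC content of the set (31.0%) and 0 h replicate 1 at 4.69 times the others. It overlaps Ube3a on the opposite strand, which had means of 60.0, 59.7 and 90.9 CPM. The lincRNA Gm38246 measured 21.3, 17.8 and 18.6 CPM at 0 h, 2.38, 3.33 and 4.48 at 24 h, and 7.98, 8.24 and 7.42 at 48 h, with no overlap between times, but 74.1% of it matches other genes. Gm15027 and Gm14536, pseudogenes of 138 bases on chromosome X that match each other in full, had 0 h means of 11.8 and 6.86 CPM and cannot be counted apart. In Gm15027 the 24 h libraries were below all others, and in Gm14536 they overlapped 0 h replicate 3. Gm15015, also on chromosome X and matched in full by other genes, had 7.56 ± 3.61, 3.64 ± 0.390 and 5.86 ± 2.68 CPM, with overlap. Gm37179 had 5.29 ± 0.465, 1.70 ± 0.119 and 2.75 ± 0.440 CPM and 2010300C02Rik had 30.2 ± 5.09, 14.9 ± 2.88 and 24.0 ± 3.53 CPM, and in these last 2 every 24 h library was below all others.

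Per kilobase of exon, the highest members at 0 h other than the 138-base pseudogenes were Sfrp2 at 35.1 CPM per kilobase, Enc1 at 29.8, Med14 at 26.1 and Pip4k2a at 16.9. Snhg14 was lowest at 0.238. Sfrp2 and Enc1 thus stood above Med14 per length, although Med14 had the highest CPM.

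The limits cut through a continuous spread of values. At the floor of 5 CPM, Dlx2 (5.19), Pbld2 (5.21) and Cd34 (5.22) were just inside, and Gm4353 (4.84), P2rx7 (4.65) and Dppa2 (4.46) just outside. At the ratio of 24 h to 0 h, 2010300C02Rik (0.493), Rex2 (0.494) and Snhg14 (0.496) were inside and Ktn1 (0.501) and Bod1l (0.518) outside. At the ratio of 48 h to 24 h, Zfp229 (1.501), Pcdh12 (1.504) and Ptprb (1.51) were inside and Epg5 (1.497), Sgk3 (1.493) and Mt2 (1.491) outside. Mt2, a metallothionein, and Sgk3, a kinase of the growth factor pathway, were the most abundant of these genes, with 324 and 166 CPM at 0 h, 81.2 and 44.1 at 24 h, and 121 and 65.8 at 48 h.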

How the data were processed

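RNA was measured in 9 libraries of EGFP-SSCs, 3 at each of 0 h, 24 h and 48 h. The authors purified poly-A RNA with poly-T beads, sequenced it and deposited counts, the whole number of reads on each Ensembl gene, without normalization. The submitters' processing notes name fastp, HISAT2, featureCounts and the build GRCm38. The annotation release and the strand setting are not given in the sources used here. Names, positions, lengths and GC content of the longest transcript came from GENCODE M21, which held 45229 of 46078 identifiers, and the others took at most 0.121% of the counts of a library. The labels name biological replicates but no separate animals or cultures, so p-values measure the spread between these samples.

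CPM used library totals of 16825251 to 22201892 counts. Each pair of times was fitted with edgeR 4.0.16 in R 4.3.3 (filterByExpr, TMM normalization, quasi-likelihood test, two-sided, Benjamini-Hochberg adjustment over all genes tested, threshold 0.05) on its 6 libraries, and the steps were tested on simulated data. The authors used DESeq2, which was an alternative here (release 1.42.0). Other alternatives were other scalings, filters and limits, a block for the replicate number, a single fit of all libraries, offsets for GC content and length (natural splines, 5 and 4 degrees of freedom) and leaving out each library. Shared sequence was measured with BLAST 2.17.0 in windows of 75 bases at 97% identity, in steps of 25 bases. Figures were drawn with matplotlib 3.10.9.

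The members, the 32 gene lists and the motifs were chosen with earlier results of these data known. Every member is named, and 1 gene outside a limit is not reported here. Those with the highest 0 h level, the lowest ratio of 24 h to 0 h, the highest ratio of 48 h to 24 h or the extreme ratios of 48 h to 0 h were picked out for description by rule, with those nearest to each limit, and the rest, the grouping by role, the Mediator genes and the zinc finger cluster were added after the values were seen. The split of the 51 members by overlap in the counts of calls was added as an alternative after seeing the data.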

Additional observations from a re-analysis of the deposited data

How the results depend on the processing

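The rule chose 51 genes, and 9 with ratios of 0.4 and 2 in place of 0.5 and 1.5, 31 when every 24 h library had to be below every other library, and 30 with a floor of 10 CPM. Leaving out each library in turn gave 33 to 77 genes, the extremes on dropping 0 h replicate 1 and 0 h replicate 3. TMM-normalized library sizes, which move the scale between times, gave 67 genes and the correction for GC content and length 47. The median log2 ratio of 48 h to 0 h, -0.74, was -0.96 to -0.73 over its 9 alternatives.

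Of the members, 35 were called at 24 h against 0 h, 25 at 48 h against 24 h and 26 at 48 h against 0 h. The second of these counts moved most. It was 15 at an adjusted p threshold of 0.01, 41 with no expression filter and 15 when 1 fit held all 9 libraries. With 48 h replicate 1, 2 or 3 left out it was 15, 39 or 16, the lowest and highest of its leave-one-out counts being 15 and 39. The 20 genes with overlapping libraries gave 5, 1 and 5 of the calls. Over all genes tested, 14.2%, 8.61% and 18.5% were called in the same directions. The split by overlap favours few calls among these 20 genes, so nothing is read from the counts. Over all genes, 4494, 3732 and 5602 were called, and 2382, 1499 and 3261 at a threshold of 0.01. When 1 fit held all 9 libraries, 1043 genes were called between 24 h and 48 h. The leave-one-out counts over all genes spanned 2607 to 6023 at 24 h against 0 h. The low counts came on dropping 0 h replicate 2 (2931) or 24 h replicate 1, 2 or 3 (2610, 2607 or 2806). At 48 h against 24 h they spanned 1857 to 4356, with 24 h replicate 1 dropped at 2044 and 48 h replicate 1 or 3 dropped at 1857 or 2255. At 48 h against 0 h they spanned 3471 to 7116, with 48 h replicate 1 or 3 dropped at 3471 or 3624. Library size alone moved the share of higher calls over all genes from 44.5% to 57.1% at 24 h and from 41.2% to 52.8% at 48 h against 0 h, and called 34, 24 and 26 members. The cause of these moves was not tested.

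Correlations of same-numbered deviations ran from -0.28 to 0.20, so no pairing by replicate number was seen. The libraries of a time also differ along GC content, so these correlations cannot exclude a pairing. With the replicate block, 35, 17 and 26 members were called and 3007, 2497 and 4013 genes in all. The members' median log2 ratio of 48 h to 0 h stayed negative under each alternative, a sign that the limits of the rule favour. Over all genes, the majority of calls passed from lower to higher with library size alone, at 24 h and at 48 h against 0 h. The other results are counts, which can move but not reverse. Genes under 10 CPM rest on few counts at 24 h, where counting error alone is large.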
